A study of Mus musculus with 12 samples.

Results

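The insulin-like growth factor (IGF) family was described here through 10 genes: the ligands Igf1 and Igf2, the receptors Igf1r and Igf2r, and the binding protein genes Igfbp2 to Igfbp7. All probes that the platform annotation assigned to these symbols were taken, 24 of 45281 probes on the array, which name 19053 genes in all. A probe was tested if it was detected, at a detection p-value under 0.05, on at least 6 of the 12 arrays. Of the 24 probes, 15 passed, and they stood for 8 of the 10 genes. Igfbp2 and Igfbp6 did not pass. Each tested gene is given by its brightest probe, called probe 1, and its other probes follow in the order of their brightness.

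The cells were cardiac myocytes of C57BL/6 mice aged 12 to 16 weeks, isolated by collagenase perfusion of the heart and plated on laminin. In the treated group, 6 samples had received 200 nmol/L connective tissue growth factor (CTGF, the product of Ccn2) for 48 h. The 6 control samples were cultured for the same time without it. In both groups the medium held BSA, penicillin-G and BDM, an inhibitor of myosin contraction. RNA was measured on single-colour Illumina bead arrays, 1 per sample. The labels do not say whether the samples came from separate hearts or preparations, so p-values here reflect how these samples scattered, which may be technical in part.

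IGF1 and IGF2 are secreted peptides that signal growth and survival through the tyrosine kinase IGF1R. IGF2R, also called the cation-independent mannose 6-phosphate receptor, takes up IGF2 and delivers it to lysosomes. The IGF binding proteins hold the ligands outside the cell, lengthen their life and limit or direct their access to the receptor. Their amino-terminal cysteine-rich domain is shared with the CCN proteins, so that the added protein, CTGF, carries an IGF binding protein domain itself. In the heart, IGF signalling is known for its part in myocyte growth and survival.

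Of the 8 genes tested, 3 fell with CTGF, Igf2, Igfbp3 and Igfbp4, and none rose. Among all 8905 genes tested on these arrays 21.6% were lower and 25% higher by the same test, 46.6% in either direction (limma, Benjamini-Hochberg adjusted p under 0.05). The other 5 genes, Igf1, Igf1r, Igf2r, Igfbp5 and Igfbp7, did not pass. The members' median log2 fold change was -0.24, beside 0.03 over all genes. In the same 3 genes the CTGF and control arrays did not overlap, with all CTGF arrays below all control arrays, which was so for 12.1% of all genes, while groups were apart in either direction for 25.1%.

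The annotated start regions of the 3 genes that fell are shown with that of Igfbp5, a bright binding protein gene that did not pass, as examples of the family's regulatory sequence. The probes do not tell which start a transcript came from. Each is 300 bases, 250 before to 50 after the start, 5' to 3', from RefSeq on GRCm38.p6. All 10 genes matched the RefSeq table. Igf2 has 4 windows there, and the one at its most downstream start is printed. Capitals mark the usual promoter box TATAAA, its alternating variant form TATATA, and the GC box GGGCGG, searched on both strands, and no marked motif overlaps another.
Igf2, chr7:142657447-142657746, minus strand: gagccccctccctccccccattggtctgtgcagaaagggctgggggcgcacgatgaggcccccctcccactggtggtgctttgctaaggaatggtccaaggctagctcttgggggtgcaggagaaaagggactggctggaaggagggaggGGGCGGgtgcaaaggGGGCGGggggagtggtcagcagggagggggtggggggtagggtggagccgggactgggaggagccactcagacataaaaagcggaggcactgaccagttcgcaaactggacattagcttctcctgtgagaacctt
Igfbp3, chr11:7213874-7214173, minus strand: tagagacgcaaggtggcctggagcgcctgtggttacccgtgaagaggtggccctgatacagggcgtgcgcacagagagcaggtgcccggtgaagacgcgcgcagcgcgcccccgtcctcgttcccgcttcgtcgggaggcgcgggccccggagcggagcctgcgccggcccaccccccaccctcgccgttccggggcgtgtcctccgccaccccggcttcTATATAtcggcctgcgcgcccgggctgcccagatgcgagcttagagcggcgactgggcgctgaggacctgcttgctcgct
Igfbp4, chr11:99040994-99041293, plus strand: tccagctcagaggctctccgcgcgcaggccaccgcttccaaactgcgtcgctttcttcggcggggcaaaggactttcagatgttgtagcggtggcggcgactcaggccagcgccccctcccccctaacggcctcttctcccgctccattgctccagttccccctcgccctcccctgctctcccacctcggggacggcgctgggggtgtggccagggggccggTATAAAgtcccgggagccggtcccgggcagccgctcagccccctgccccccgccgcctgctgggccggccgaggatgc
Igfbp5, chr1:72874816-72875115, minus strand: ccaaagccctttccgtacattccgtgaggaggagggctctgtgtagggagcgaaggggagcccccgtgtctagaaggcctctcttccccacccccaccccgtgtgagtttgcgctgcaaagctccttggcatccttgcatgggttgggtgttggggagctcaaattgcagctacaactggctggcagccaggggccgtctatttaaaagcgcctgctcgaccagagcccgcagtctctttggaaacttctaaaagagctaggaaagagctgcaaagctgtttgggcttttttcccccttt

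In Igfbp4 the letters TATAAA begin 28 bases before the start, and 13.6% of 32851 mouse windows of this length hold them. In Igfbp3 the letters TATATA begin 30 bases before the start, against 5.67% of all windows. TATATA was added to the search after the windows had been read. Other variants, such as TATTTAA in the printed Igfbp5 window, were not searched or marked. The window of Igfbp6, a member not tested, also holds TATAAA. The Igf2 window holds GGGCGG at 100 and at 85 bases before the start, and 35.7% of all windows hold it at least once. Of the other Igf2 windows 1 holds it once and the others do not. Members that were not called hold as many or more, with 2 in the window of Igf1r, 3 in that of Igf2r and 4 in that of Igfbp7. The AP-1 letters TGANTCA (7.81% of all windows) and the forkhead core GTAAACA (3.65%) are in none of the 4 windows printed. These matches describe the letters only.

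**Figure D1:**
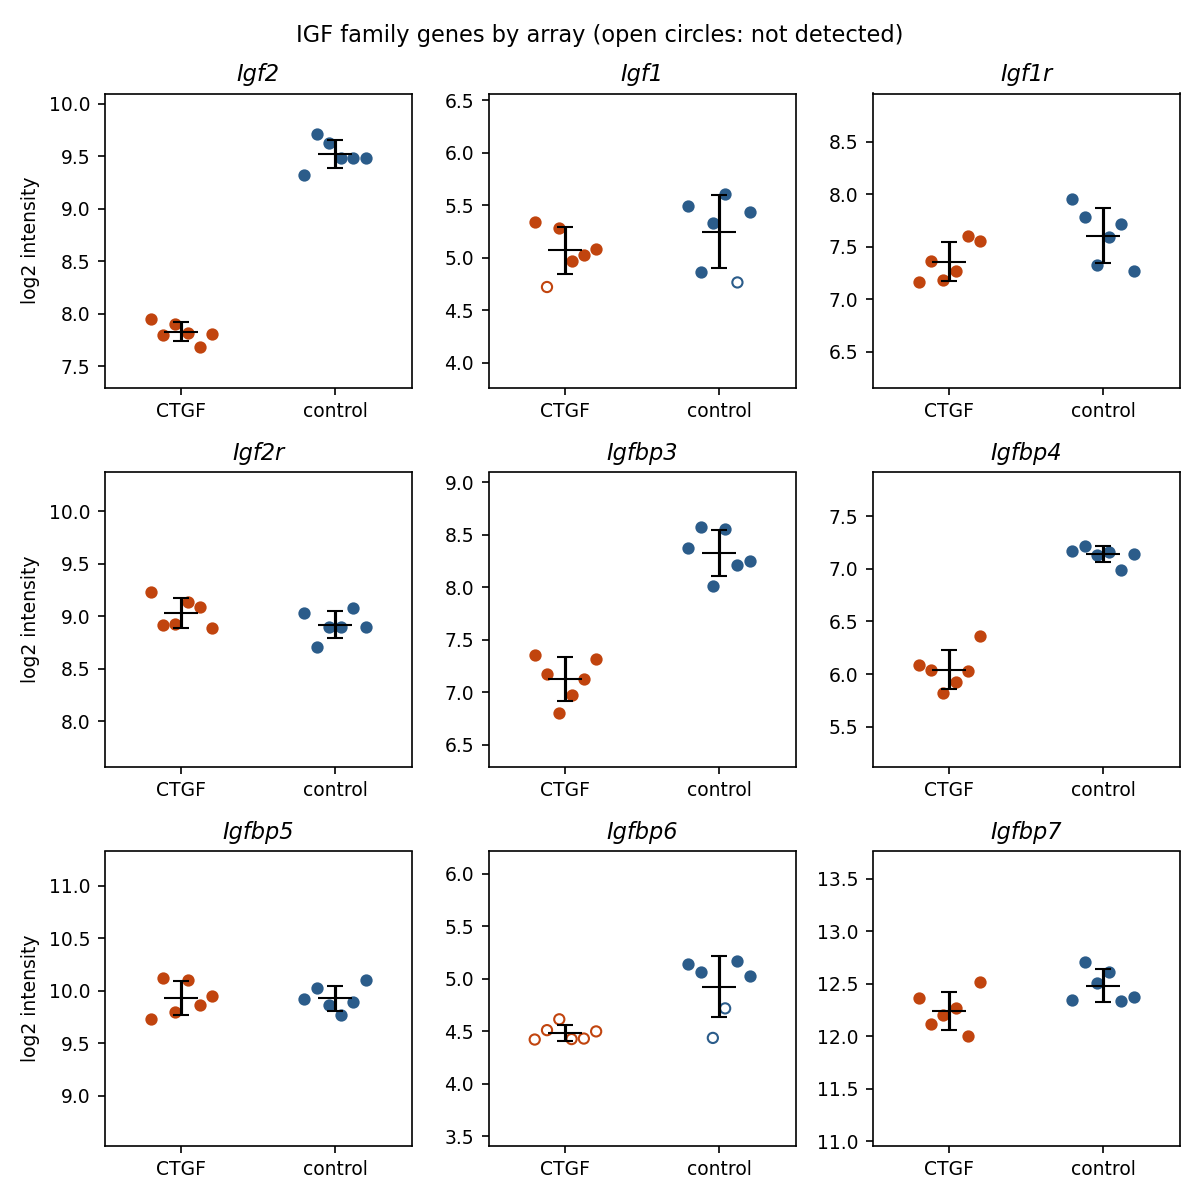
Log2 intensity (vertical axis, background-corrected and quantile-normalized, with the same span in every panel) of the brightest probe of 9 IGF family genes on each of 6 CTGF and 6 control arrays. Filled circles are detected and open circles undetected, and black bars are the mean ± SD. The CTGF arrays lie wholly below the control arrays for Igf2, Igfbp3 and Igfbp4, and Igfbp6 is undetected on every CTGF array.

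Igf2 had the largest change of the family. Its 1 probe had log2 intensities of 7.69 to 7.95 (median 7.82) on the CTGF arrays, against 9.33 to 9.71 (median 9.49) on the control arrays. Before normalization these were 248 to 366 intensity units with CTGF and 501 to 769 units in controls, so the groups were apart in the raw values too. The mean was 7.83 ± 0.09 with CTGF and 9.52 ± 0.13 in controls (SD, n = 6 each). The log2 fold change was -1.69 ± 0.08 (SE, adjusted p = 5.47e-10 by limma), or 3.22-fold lower with CTGF. Only 0.91% of the genes tested had as low a log2 fold change. With no normalization between arrays it was -1.26, where the median of all genes was 0.35.

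The other ligand gene, Igf1, was near the limit of detection. Its probe 1 was detected on 5 of 6 CTGF arrays and 5 of 6 control arrays. Log2 intensities were 4.72 to 5.34 (median 5.06) with CTGF and 4.76 to 5.60 (median 5.38) in controls, and the groups overlapped. The log2 fold change was -0.18 ± 0.15 (SE, adjusted p = 0.356 by limma), with a 95% confidence interval of -0.50 to 0.14. A second Igf1 probe was detected on 1 CTGF array and 2 control arrays and was not tested.

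Igf1r, the receptor through which both ligands signal, had 4 probes, 3 of them tested. Probe 1 was detected on all arrays, at 7.16 to 7.61 (median 7.32) with CTGF and 7.27 to 7.95 (median 7.65) in controls on the log2 scale. Its log2 fold change was -0.25 ± 0.12 (SE, adjusted p = 0.112 by limma), with an interval of -0.51 to 0.01. Probe 2, annotated to the same transcript, had 5.34 to 5.64 (median 5.48) with CTGF and 4.60 to 5.32 (median 4.95) in controls, where it was detected on 3 of 6 arrays.

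All CTGF arrays of probe 2 lay above all control arrays. It passed the detection filter only through the CTGF arrays, where it is high, so its log2 fold change of 0.54 is given as a description, with no test. Over all 15038 probes tested, 23.8% were higher and 19.7% lower, 43.5% in all. Of the 15 family probes 5 were lower, and Igf1r probe 2 is not counted as a rise for the reason given. Probe 3 was not called (0.06 ± 0.16, SE, limma adjusted p = 0.798), and probe 4 was detected on 1 array of each group. The mean of the tested probes gave 0.12 for the gene, which is a description only, since it includes probe 2. Probe 1 had the opposite sign, uncalled and below the median of all genes, with no normalization between arrays (0.17) and with median scaling (0.14).

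Igf2r, the uptake receptor for IGF2, did not pass the test while its ligand fell. Probe 1 had log2 intensities of 8.89 to 9.23 (median 9.01) with CTGF and 8.71 to 9.08 (median 8.90) in controls. The groups overlapped, and the log2 fold change was 0.11 ± 0.09 (SE, adjusted p = 0.307 by limma), with an interval of -0.07 to 0.30. Probe 2 gave 0.15 ± 0.15 (SE, limma adjusted p = 0.435 over all probes).

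The Igf2r result depended on the scaling between arrays. Raw intensities of probe 1 were 537 to 805 units with CTGF and 398 to 524 units in controls, and these did not overlap. Without normalization between arrays Igf2r was called higher at 0.55 (limma adjusted p = 0.0016), and under median scaling at 0.53 (limma adjusted p = 0.00196). The median of all genes was 0.35 and 0.32 there.

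**Figure D2:**
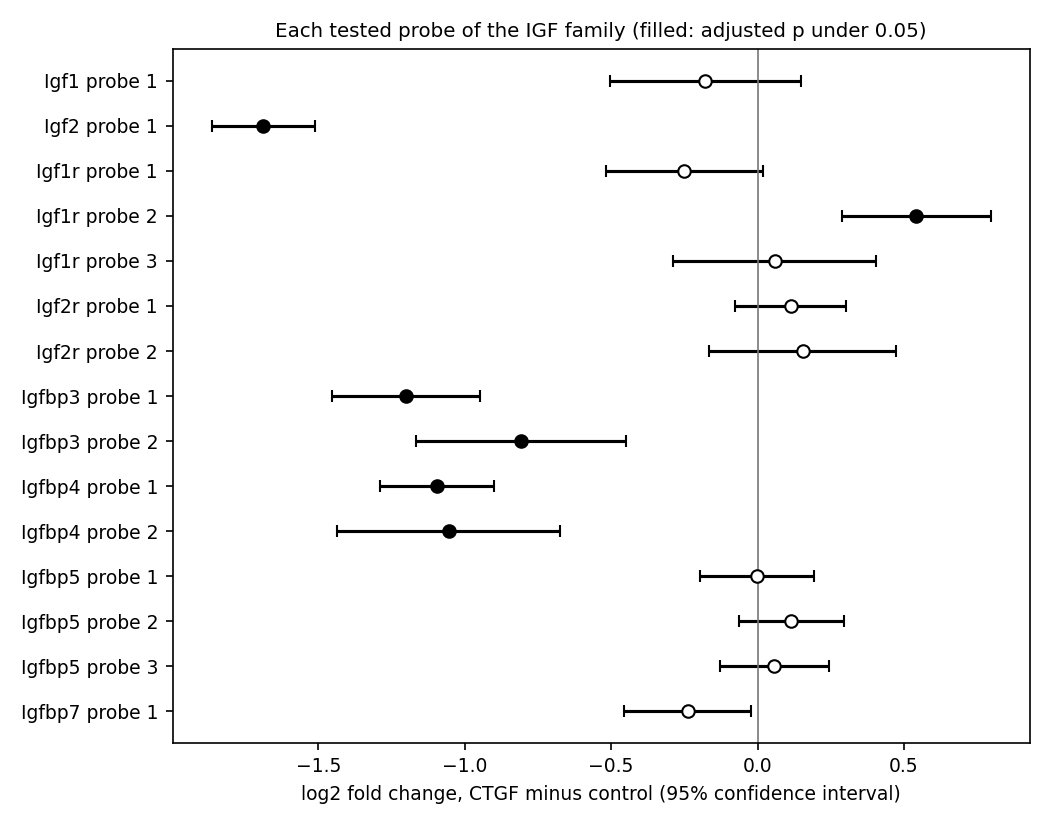
Log2 fold change, CTGF minus control (horizontal axis, with 95% confidence interval from limma), of the 15 tested probes of the IGF family, 1 row each. Filled points have an adjusted p under 0.05 over all probes. The 5 filled points left of 0 are the probes of Igf2, Igfbp3 and Igfbp4. The filled point right of 0 is Igf1r probe 2, which passed the detection filter only through the CTGF arrays. Its filling and interval are therefore not read as a test.

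Among the binding proteins, Igfbp3 and Igfbp4 fell on both of their probes. Igfbp3 encodes the main carrier of IGFs in plasma. Its probe 1 had log2 intensities of 6.81 to 7.35 (median 7.15) with CTGF and 8.01 to 8.58 (median 8.31) in controls. All CTGF arrays were below all control arrays, in raw units too, at 159 to 257 with CTGF and 275 to 384 in controls. The mean was 7.12 ± 0.21 with CTGF and 8.33 ± 0.22 in controls (SD, n = 6 each), a log2 fold change of -1.20 ± 0.12 (SE, limma adjusted p = 8.65e-07).

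The second Igfbp3 probe, dimmer than the first, had 5.61 to 6.44 (median 5.99) with CTGF and 6.36 to 7.26 (median 6.82) in controls, and the groups overlapped by 1 CTGF array above the lowest control array. Its log2 fold change was -0.81 ± 0.17 (SE, adjusted p = 0.00126 by limma over all probes). The 2 probes differed in response by 0.39 on the log2 scale (two-sided exact permutation p = 0.0823, adjusted p = 0.192 over 7 probe pairs of the family). Without background correction this difference was 0.46 and passed (adjusted p = 0.0303).

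Igfbp4 encodes a binding protein known mainly as an inhibitor of IGF action, released from its ligand when the protease PAPP-A cleaves it. Probe 1 had log2 intensities of 5.82 to 6.36 (median 6.03) with CTGF and 6.99 to 7.22 (median 7.15) in controls, a gap of more than the range of either group. Its mean was 6.04 ± 0.18 with CTGF and 7.14 ± 0.08 in controls (SD, n = 6 each), and the log2 fold change was -1.10 ± 0.09 (SE, adjusted p = 1.32e-07 by limma). Probe 2 had 5.37 to 6.60 (median 6.10) with CTGF and 6.72 to 7.28 (median 7.14) in controls.

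Both Igfbp4 probes thus separated the groups, and probe 2 gave -1.05 ± 0.18 (SE, limma adjusted p = 0.000239 over all probes). Their responses differed by 0.04 (two-sided exact permutation p = 0.84, adjusted p = 0.84 over 7 probe pairs). In raw units probe 1 lay at 103 to 157 with CTGF and 155 to 191 in controls, so the groups overlapped slightly before normalization. The size of the change depended on the background step. The log2 fold change of Igfbp4 was -0.70 without background correction, still called, with an adjusted p of 1.54e-08 by limma.

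Igfbp5, a binding protein that also attaches to extracellular matrix, had 3 probes detected on all arrays and none was called. Probe 1 had log2 intensities of 9.73 to 10.13 (median 9.91) with CTGF and 9.77 to 10.11 (median 9.91) in controls. The groups covered nearly the same range. The log2 fold change was -0.0012 ± 0.09 (SE, adjusted p = 0.993 by limma), with an interval of -0.19 to 0.19, which excludes a change as large as that of Igfbp3 or Igfbp4. Probes 2 and 3 gave 0.12 ± 0.08 and 0.06 ± 0.09 (SE, limma adjusted p = 0.288 and 0.622 over all probes).

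As with Igf2r, raw values of Igfbp5 stood higher with CTGF, at 993 to 1299 units with CTGF and 738 to 1177 units in controls for probe 1. Without normalization between arrays Igfbp5 was called higher at 0.40 (limma adjusted p = 0.0161), and under median scaling at 0.38 (limma adjusted p = 0.0217). Both lay near the median of all genes, 0.35 and 0.32.

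Igfbp7 encodes a secreted protein of low IGF affinity that is found in vascular basement membrane. Its 5 probes are annotated to a single transcript, but probe 1 was detected on all 12 arrays and the other 4 on none. The log2 intensities of probe 1 were 12.01 to 12.52 (median 12.23) with CTGF and 12.34 to 12.71 (median 12.44) in controls, and the groups overlapped. The log2 fold change was -0.24 ± 0.10 (SE, adjusted p = 0.0624 by limma), with an interval of -0.45 to -0.03. This p lay close to the threshold, and 6 of the other settings called it lower, as the closing section lists. Igfbp7 was not called without normalization between arrays (-0.04, limma adjusted p = 0.852) or with median scaling (-0.06, limma adjusted p = 0.746). The median of all genes was 0.35 and 0.32 there.

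Igfbp6 encodes the binding protein that prefers IGF2. Its 1 probe was undetected on all CTGF arrays, at 4.42 to 4.62 (median 4.47), and was detected on 4 of 6 control arrays, at 4.44 to 5.17 (median 5.05). The mean was 4.49 ± 0.07 with CTGF and 4.93 ± 0.29 in controls (SD, n = 6 each). With each CTGF array set to the dimmest signal that still counted as detected, its mean was 1.06-fold lower with CTGF. This is a difference of means with no error and no test, and the groups overlapped. Igfbp6 would pass a filter only through the group where it is high, so it is not counted among the genes that fell. Igfbp2 had 2 probes, undetected on all 12 arrays, so that no change could be measured.

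**Figure D3:**
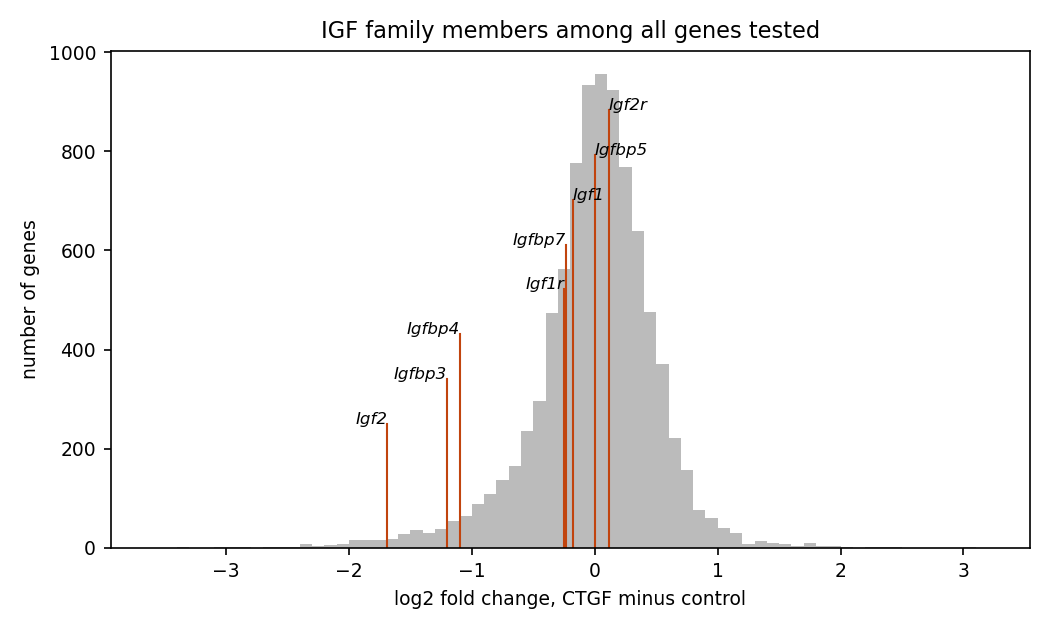
Histogram of the log2 fold change, CTGF minus control (horizontal axis), of all 8905 genes tested, with the number of genes on the vertical axis. Lines mark the 8 tested IGF family genes, their heights set only for legibility. Igf2, Igfbp3 and Igfbp4 lie in the lower tail, with 0.91%, 2.55% and 3.25% of genes as low. For Igf1r, Igfbp7 and Igf1 this share is 23.5%, 24.3% and 28.5%, and for Igfbp5 and Igf2r 46.2% and 58.4%.

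Markers of other cell types moved on the same arrays, where 21.6% of all genes were lower and 25% higher by the same test. All 11 tested of 12 endothelial markers were lower (median log2 fold change -1.69), and their summed normalized intensity (linear scale) was 2212 to 2568 with CTGF and 7584 to 9231 in controls. All 11 were still detected on at least 2 CTGF arrays, though Tie1 passed the filter only through the controls, with Pecam1 at 7.11 with CTGF and 8.80 in controls (mean log2 intensity), and Kdr was undetected on all arrays. Of 7 tested of 10 fibroblast markers 3 were lower (Pdgfra, Pi16 and, passing only through the controls, Tcf21) and 1 higher (Meox1), with summed intensities of 5333 to 6252 with CTGF and 4194 to 7452 in controls, and Col1a1, Postn and Ddr2 were not tested. With no normalization between arrays 3 were lower and 3 higher.

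Of 7 tested of 9 smooth muscle and pericyte markers 6 were lower, with Notch3 passing only through the controls, and 1 was higher. Their sums were 2765 to 3366 with CTGF and 4679 to 5347 in controls. With no normalization between arrays 4 were lower and 1 higher. Of 4 tested of 9 macrophage markers 2 were lower, the lysozyme genes Lyz1 and, passing only through the controls, Lyz2. Csf1r and Cd14 were not called, at 0.14 and 0.18 (log2 fold change). The macrophage sums were 151 to 220 with CTGF and 478 to 674 in controls. The fall in these sums mainly follows Lyz1, at 6.36 with CTGF and 8.77 in controls (mean log2 intensity). No lymphocyte marker was tested. The myocyte markers were bright in both groups, with sums of 175333 to 199098 with CTGF and 191421 to 210940 in controls. Of these, 3 of 7 were lower, Tnni3 at -0.89, Pln at -0.75 and Actc1 at -0.31 (log2 fold change). With no normalization between arrays 1 of them was lower, while the endothelial and macrophage counts stayed the same. The part of these cells in the falls of Igf2, Igfbp3 and Igfbp4 was not tested. In such bulk samples, fewer cells of a type and less RNA per cell cannot be told apart.

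Further genes of IGF signalling were called at about the shares of all genes. Of 35 genes on the list (insulin receptor and substrates, adaptors, binding protein proteases and their inhibitors, and IGF2 receptor sorting), 25 were tested. Of these 7 rose and 6 fell, beside 25% and 21.6% of all genes, and the median was -0.04 on the log2 scale. Among the 7, Ghr was higher at its brightest probe (0.26) but called lower at a second (-0.40, limma adjusted p = 0.0142 over all probes). A further probe each of Gga1 and Ptpn11 gave no call, at 0.25 and 0.20. The largest change was in Stc1, which encodes stanniocalcin 1, an inhibitor of the proteases that cleave binding proteins. It had 7.05 ± 0.13 with CTGF and 8.86 ± 0.04 in controls (log2 intensity, SD, n = 6 each), a log2 fold change of -1.81 ± 0.07 (SE, limma adjusted p = 2.12e-10). Pappa itself, the gene of that protease, was detected on 2 arrays and not tested.

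Gga3, an adaptor that sorts mannose 6-phosphate receptors, rose by 0.79 ± 0.14 on the log2 scale (SE), although a second probe gave no call, with a log2 fold change of -0.00. Gigyf2, a partner of the receptor adaptor GRB10, rose by 0.69 ± 0.12. Adamts1, a secreted metalloproteinase, changed by -0.73 ± 0.11, with -0.92 at a second probe. Irs2, a docking protein of the insulin and IGF1 receptors, changed by -0.66 ± 0.21 (SE, limma adjusted p = 0.0163), with overlapping groups. Its call was lost without scaling of the arrays (-0.24, limma adjusted p = 0.258) and with median scaling (-0.27, limma adjusted p = 0.208).

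Insr and Irs1, named for their roles and not by the size of change, did not pass, at 0.08 ± 0.08 and -0.24 ± 0.18 (SE, limma adjusted p = 0.428 and 0.302). Insr was called higher without normalization between arrays (0.49, limma adjusted p = 0.00439). In that setting 11 genes of the list rose and 2 fell, and the same counts were found under median scaling. The list median was 0.32 and 0.30 there, close to that of all genes.

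Outside the IGFBP genes, 8 of 13 genes for proteins with an IGF binding protein domain were tested, of which 2 were called higher and 4 lower, beside 25% and 21.6% of all genes. Of the 2 called higher, Ccn5 was detected on 6 CTGF arrays and 2 control arrays, so it passed the filter only through the group where it is high. Ccn2, the gene of the added protein, changed by -0.62 ± 0.10 on the log2 scale (SE) and Ccn1 by -1.18 ± 0.11, while Ccn4 rose by 3.08 ± 0.13. Esm1, which encodes the endothelial proteoglycan endocan, changed by -2.11 ± 0.11. Crim1, a transmembrane protein that binds bone morphogenetic proteins, changed by -0.59 ± 0.09, a call lost without scaling of the arrays (-0.16, limma adjusted p = 0.375) and with median scaling (-0.19, limma adjusted p = 0.295). On the same arrays all 11 tested endothelial markers were lower, Tie1 passing the filter only through the controls. The part of endothelial cells in these changes was not tested.

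**Figure D4:**
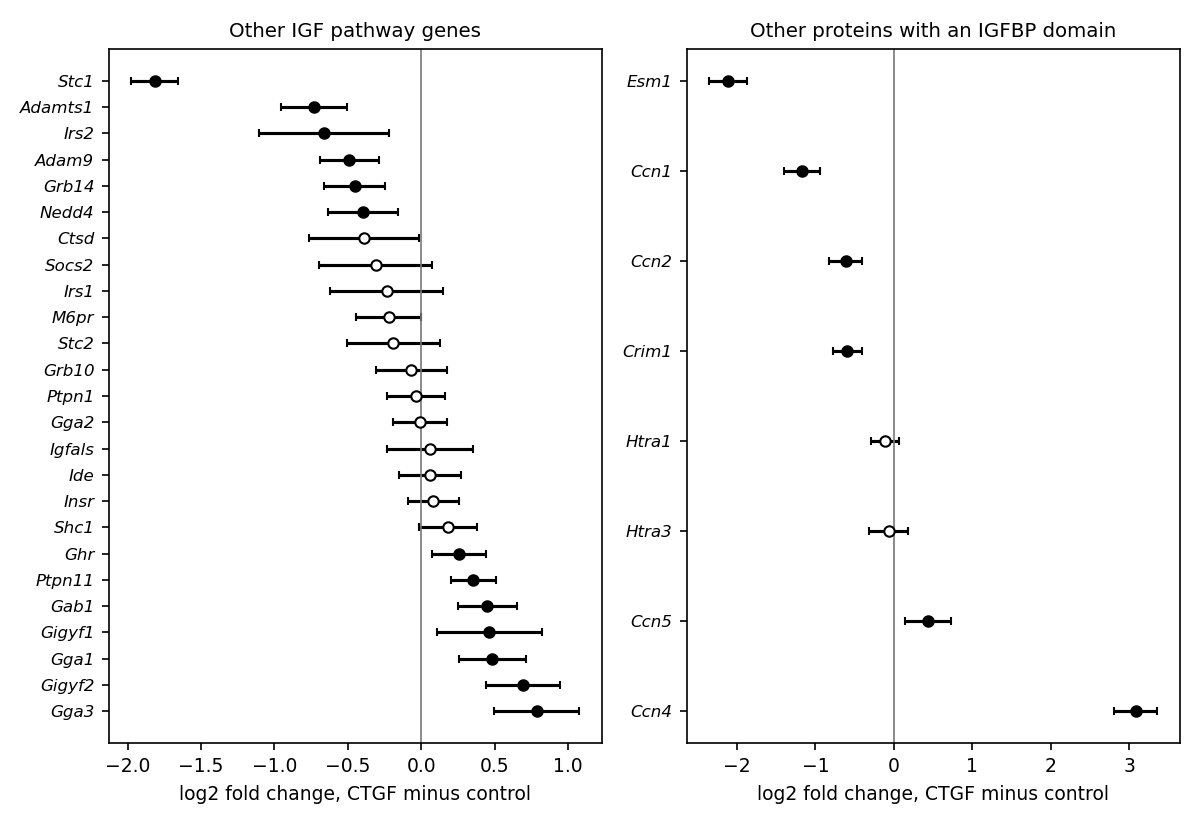
Log2 fold change, CTGF minus control (horizontal axes, with 95% confidence interval from limma), of 25 other IGF pathway genes (left) and of 8 genes for other proteins with an IGF binding protein domain (right). Filled points have an adjusted p under 0.05 over all genes. Stc1 and Esm1 have the lowest values of their lists and Ccn4 the highest on the right.

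Over 7 ways of treating background and scaling, Igf2, Igfbp3 and Igfbp4 stayed lower and called. The 7 ways are not independent. No background correction, normexp and the authors' values gave nearly the same results, with -1.49 for Igf2 in each. Igf2 ranged from -1.75 to -1.26, Igfbp3 from -1.26 to -0.77 and Igfbp4 from -1.17 to -0.70. In each way Igf2 had the lowest value of the family. Among all called genes 53.7% were higher with quantile normalization. With no scaling of the arrays 86.3% were higher, and with median scaling 84.9%, and under both settings the family had 2 members higher and 3 lower.

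**Figure D5:**
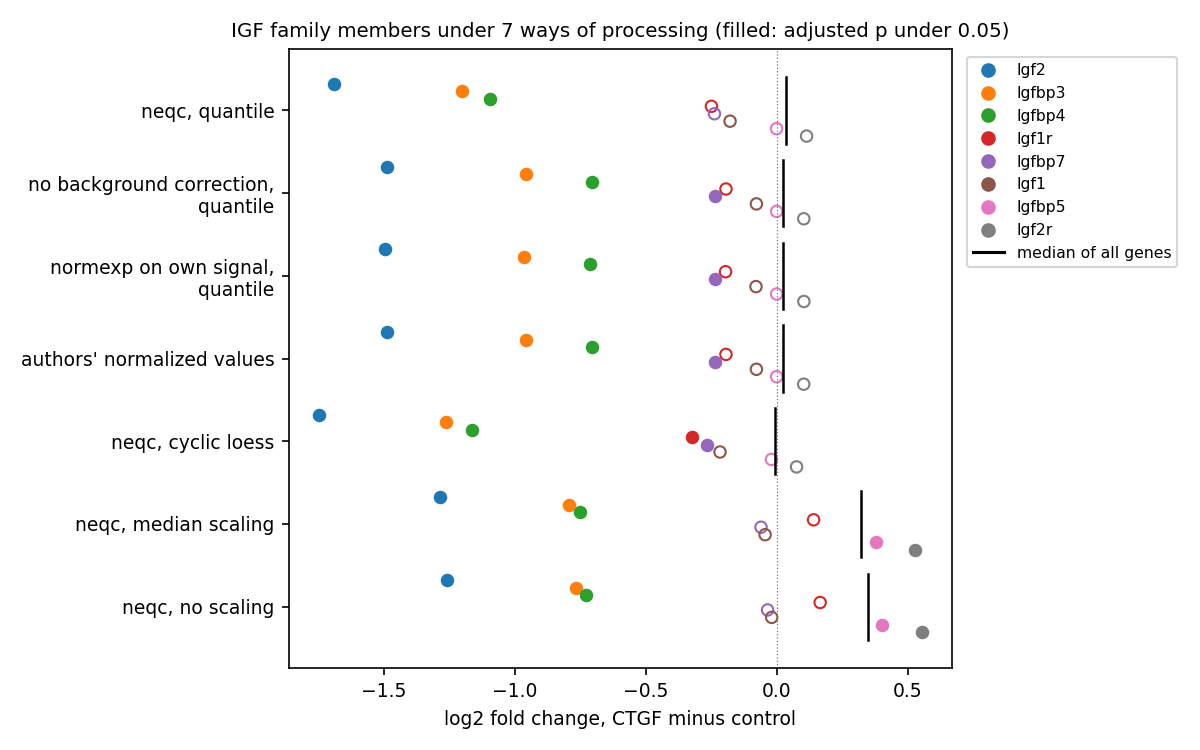
Log2 fold change, CTGF minus control (horizontal axis), of the 8 tested IGF family genes under 7 ways of processing (rows). Filled circles have an adjusted p under 0.05, and the black bar in each row is the median of all genes. Igf2, Igfbp3 and Igfbp4 are left of the bar and filled in every row. Igf2r and Igfbp5 are filled in the 2 lowest rows, where the bar itself lies at 0.32 and 0.35. Igfbp7 is filled without background correction, with normexp, on the authors' values and under cyclic loess, and Igf1r under cyclic loess.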

How the data were processed

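RNA was labelled with biotin and hybridised to Illumina bead arrays, per the labels' protocols. The authors deposited mean bead intensity per probe and array, not normalized, and a detection p-value for each, per the file headers. A second deposited table holds intensity values with the same distribution on every array, and its sorted values lay within 0.51% of the mean sorted raw values, leaving out the top 10 probes. The scanner software, and which slide held which array, are not given in the sources used. Whether slides followed the groups is therefore unknown, and a slide effect could not be separated from that of the treatment.

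Sample titles gave the groups and replicate numbers. The platform annotation gave 34885 of 45281 probes 1 gene symbol, 18 several and 10378 none. Symbols were updated through Entrez identifiers (34807 probes) or accessions (11), and 67 were kept.

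Intensities were corrected and quantile-normalized by the neqc function (limma 3.58.1 under R 4.3.3), with background from the detection p-values and an offset of 16, and taken to log2. The offset shrinks changes of dim probes. The 15038 probes detected on at least 6 arrays were tested by a moderated linear model (lmFit, eBayes, two-sided), adjusted after Benjamini-Hochberg. The gene test took the brightest probe of 8905 genes. A gene's p-value is adjusted over genes, unless it is stated to be over all probes. Levels of different probes are not compared. Figures were drawn with matplotlib 3.10.9. The fit was tested on simulated data with equal numbers of bright genes raised and lowered. That simulation does not test the choice of scaling between arrays. Precision is limited by the number of arrays, and the median standard error over genes was 0.11 on the log2 scale.

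Detected probes per array numbered 15082 to 16390 with CTGF and 14747 to 15743 in controls. The family members, gene lists, markers and tests were chosen with earlier results of these data known. All members are named, and from each list the 5 called genes with the largest absolute change. No pairing by replicate number was seen: same-numbered arrays had correlations of -0.05 to 0.03 in their deviations from the group means. CTGF replicate 1 and control replicate 6 deviated together (r = 0.47). Settings tried were other background steps and scalings, the authors' values, other filters, probe means, array weights, a trended robust variance, a stricter threshold, a replicate block and leaving out arrays. Probe sequences and protein sequences were not used here.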

Additional observations from a re-analysis of the deposited data

Results flagged for a closer look

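Among 36 groups of 6 arrays checked, the lowest or highest array stood far from the others in 3, and chance flags about 5% of such groups. For Igf1r probe 3, control replicate 1 had a log2 intensity of 5.74, against 4.99 for the next control array. For Igf1r probe 4, control replicate 4 had 5.34, against 4.67 for the next. For Igfbp4 probe 1, control replicate 5 had 6.99, against 7.14 for the next, and without that array the log2 fold change of this probe was -1.12.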

How the results depend on the processing

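Igf1, Igf2, Igfbp3 and Igfbp4 kept their direction and their side of the threshold in every setting that tested them, with 1 exception, that Igf1 could not be tested when detection on all 12 arrays was required. With 1 array left out, Igf2 ranged from -1.73 to -1.65, Igfbp3 from -1.27 to -1.14, Igfbp4 from -1.16 to -0.92, since its brightest probe was then in some cases probe 2 (probe 1 alone ranged from -1.16 to -1.05), and Igf1r from -0.32 to -0.18, called without control replicate 6 (limma adjusted p = 0.0413). Igfbp7 ranged from -0.29 to -0.19 and was called without CTGF replicate 6 (limma adjusted p = 0.0232). It was also called at -0.24 without background correction, with normexp on each array's own signal, on the authors' normalized values and with a trended robust variance, at -0.27 under cyclic loess and at -0.30 with array weights. The values without background correction, with normexp and from the authors were nearly the same. Igfbp7 was not called without normalization between arrays (-0.04) or under median scaling (-0.06). Under cyclic loess Igf1r was called at -0.32, and 5 members were lower.

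Without normalization between arrays 4403 genes were higher and 699 lower, and 2 members were higher, Igf2r at 0.55 and Igfbp5 at 0.40. In the IGF pathway list 11 were higher and 2 lower. Under median scaling 4218 genes were higher and 749 lower, and 2 members were higher, Igf2r at 0.53 and Igfbp5 at 0.38, with 11 of the pathway list higher and 2 lower. The list of IGF binding protein domains had 1 gene higher over genes detected on all 12 arrays, at an adjusted p under 0.01, and without CTGF replicate 1 and control replicate 6, a setting chosen after seeing the data.

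The difference between Igf1r probes 2 and 1, a description only since probe 2 was detected on 3 of 6 control arrays, was 0.67 to 0.93 with 1 array left out, and 0.91 without CTGF replicate 1 and control replicate 6. Igf1r probes 3 and 1 differed by 0.23 to 0.38 with 1 array left out and were called without control replicate 1. They were called at 0.22 without background correction, with normexp and on the authors' values, and at 0.38 under cyclic loess. The Igfbp3 probes were called different at 0.46 without background correction, with normexp and on the authors' values. The causes were not tested. With the replicate number as a block, 2102 genes were higher and 1830 lower, and Igf2 stayed at -1.69 (limma adjusted p = 6.49e-07). This replicate block changed no call of a family member, and the labels do not say whether samples of the same number belong together. Signal close to background limits Igf1, Igf1r probes 2 to 4, Igfbp6 and the size of the change in Igfbp4.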
